A study of Mus musculus with 6 samples.

Results

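Ionotropic neurotransmitter receptor subunits were examined after depletion of the long non-coding RNA Dali in the mouse neuroblastoma line N2A. The genes are those whose symbols name a subunit of a glutamate-gated (Gria, Grik, Grin, Grid), GABA-gated (Gabr), glycine-gated (Glra, Glrb), acetylcholine-gated (Chrn) or serotonin-gated (Htr3) ion channel. Of 56 such symbols, 51 had a probe set annotated to that gene alone, out of 19938 genes with such a probe set, and the remaining 5 were not analysed here. Where a gene had several probe sets, the one with the highest mean over all arrays was used.

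RNA came from 3 Dali knockdown samples, in which cells were transiently transfected with 1.5 ug of a construct expressing a short hairpin RNA (shRNA) against Dali, and from 3 control samples given a non-targeting vector in the same way. All cells were grown in serum-containing medium without a differentiation stimulus and harvested 2.5 days after transfection by the sample labels. The general methods of the study give a span of times, and its figure legend for this knockdown gives a longer time than the labels. Knockdown is represented by 1 construct and control by 1 vector, and the samples are called biological replicates without a statement of culture or day, so the p-values reflect the spread among these 6 samples only. Expression was measured on Affymetrix Mouse Gene 1.0 ST arrays, and every level below is a log2 value after robust multi-array averaging (RMA), with differences given as knockdown minus control.

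Ionotropic receptors open an ion pore when their transmitter binds. Glutamate receptors are tetramers that carry fast excitation in the brain, whereas GABA-A, glycine, nicotinic acetylcholine and 5-HT3 receptors belong to the pentameric Cys-loop family. In sympathetic neurons, the lineage from which neuroblastoma arises, fast transmission runs mainly through ganglionic nicotinic receptors built from the alpha3 and beta4 subunits, in which the alpha5 subunit can take an accessory place.

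Promoter sequence is shown for Gria2 and Chrna5, the members called when arrays were paired by replicate number, and for Glrb, which lies directly beside Gria2 on chromosome 3 in RefSeq gene order. Each run is the 250 bases before an annotated RefSeq start (GRCm38.p6), read 5′ to 3′ on the strand of the gene, with CpG dinucleotides in capitals. The Gria2 window is chr3:80802836-80803085 on the minus strand, the Glrb window chr3:80913661-80913910 on the minus strand and the Chrna5 window chr9:54981238-54981487 on the plus strand.
Gria2: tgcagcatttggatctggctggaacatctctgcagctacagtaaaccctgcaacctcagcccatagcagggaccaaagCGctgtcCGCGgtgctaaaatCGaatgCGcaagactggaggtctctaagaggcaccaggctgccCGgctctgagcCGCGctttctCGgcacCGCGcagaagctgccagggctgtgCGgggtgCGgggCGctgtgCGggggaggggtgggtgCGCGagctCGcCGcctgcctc
Glrb: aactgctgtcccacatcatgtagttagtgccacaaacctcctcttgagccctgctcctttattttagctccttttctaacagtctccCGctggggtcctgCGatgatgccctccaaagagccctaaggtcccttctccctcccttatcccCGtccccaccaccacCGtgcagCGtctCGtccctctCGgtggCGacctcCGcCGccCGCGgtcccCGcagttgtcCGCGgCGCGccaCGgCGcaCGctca
Chrna5: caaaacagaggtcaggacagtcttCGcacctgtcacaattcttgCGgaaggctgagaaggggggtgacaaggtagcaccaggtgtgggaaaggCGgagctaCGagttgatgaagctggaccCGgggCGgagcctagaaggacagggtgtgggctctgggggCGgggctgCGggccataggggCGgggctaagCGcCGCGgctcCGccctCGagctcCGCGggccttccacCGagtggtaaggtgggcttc
These windows held 19 CpG in Gria2, 20 in Glrb and 17 in Chrna5. RefSeq promoter windows, which add 50 bases after the start, were found for 38 of the 51 genes, in 43 windows. Their median was 10 CpG, with a median of 7 over the 32851 windows of 27025 genes in the table. The octamer recognised by POU-domain factors, searched as ATGCAAAT on both strands, was found in 0 of the 43 windows and in 1.74% of all windows. Chrna5 has a second annotated start upstream, and the CpG count of its 300-base window was 5, against 25 for the window of the start shown.

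A minority of these genes had signal above background. As a guide to background, the 95th percentile of the mean values of 1210 probe sets for olfactory and vomeronasal receptor genes was taken, a level of 7.14. The 6-array mean lay above it in 13772 of all 19938 genes and in 19 of the 51 subunit genes: 6 of 16 for glutamate, 1 of 12 for GABA, 0 of 5 for glycine, 10 of 16 for acetylcholine and 2 of 2 for serotonin. Means over the 6 arrays ran from 4.13 (Glra3) to 12.6 (Chrna3). Probe sets differ in how strongly they bind, so levels of different genes are not ranked here, and a value above the background level does not by itself establish expression. All 6 skeletal muscle markers lay above it as well, with summary means of 7.94 to 8.03 in knockdown arrays and 7.97 to 8.08 in control arrays.

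**Figure D1:**
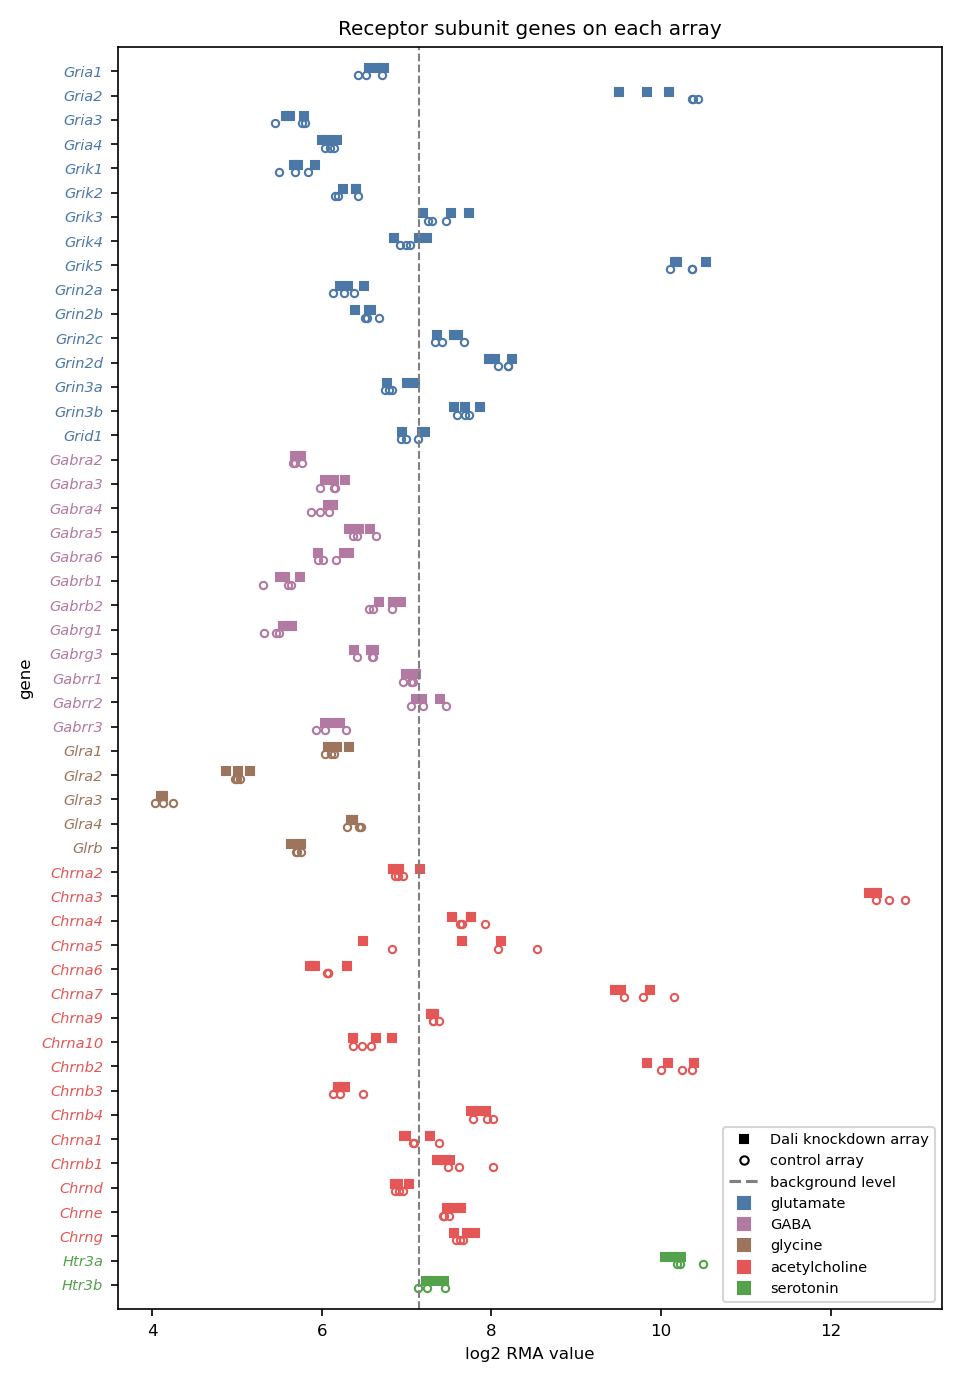
Log2 RMA value (horizontal axis) of each of the 51 receptor subunit genes (vertical axis) on every array, with filled squares for the 3 Dali knockdown arrays, open circles for the 3 control arrays and colours for the transmitter. The dashed line is the background level of 7.14, above which 19 genes have their 6-array mean, and the 5 glycine receptor genes all lie to its left.

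No receptor subunit gene was called in the comparison that follows the methods of the study, with their variance cut-off as read here. A gene was called at an adjusted p under 0.1 in limma with a fold of at least 1.3. Of the 51 genes, 24 passed the filter on variance between arrays and 0 of these were called, beside 1.14% of all probe sets that passed (133 of 11705). That filter used the interquartile range. With the variance in its place, Gria2 was called (limma adjusted p = 0.036), beside 370 of 11705 probe sets. At an unadjusted p under 0.05 without the filter the count was 1 of 51, beside 11.1% of all genes. Same-numbered arrays of the groups varied together for numbers 2 and 3 (correlation of deviations 0.65 each) and little for number 1 (0.14). With the replicate number as a block, 2 of the 24 genes, Gria2 and Chrna5, were called, both of them lower. Of all probe sets that passed, 7.65% were called with the block in either direction, and 4.89% were called lower. The block brought 6 of 51 genes to an unadjusted p under 0.05, beside 20.9% of all genes. Among the 19 genes above background these counts were 1 and, with the block, 5, beside 14.6% and 27.2% of all genes above background. The filter removed 8 of the 19 genes, namely Chrna3, Chrnb4, Chrna4, Chrna9, Chrne, Chrng, Htr3a and Grin3b. Adjusted p values given for them below come from the fit without the filter, and they could not be called with it.

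Gria2 encodes GluA2, the AMPA receptor subunit whose edited form makes the channel nearly impermeable to calcium. It stood at 9.84, 10.09 and 9.50 in knockdown arrays 1 to 3, against 10.37, 10.43 and 10.37 in control arrays 1 to 3. Every knockdown array lay below every control array, and the knockdown values were spread more widely than the control values. Gria2 was the only 1 of 51 genes with this separation downwards, beside 7.11% of all genes. It averaged 9.81 ± 0.30 in knockdown and 10.39 ± 0.035 in control cells (SD, n = 3 each), a difference of −0.58 (SE 0.15, 95% interval −0.90 to −0.26) or 1.49-fold. The limma adjusted p was 0.111, just short of the threshold, and 0.018 with the replicate block. The differences within numbers 1, 2 and 3 were −0.53, −0.34 and −0.87.

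The call for Gria2 turned on single arrays. Without the block it was called when knockdown replicate 2 (−0.72, adjusted p = 0.040, limma) or control replicate 3 (−0.59, adjusted p = 0.098) was left out. With the block it was called without number 1 (−0.60, adjusted p = 0.075) and not without number 2 (−0.70, adjusted p = 0.15) or number 3 (−0.43, adjusted p = 0.17). Over all 17 alternatives the adjusted p ran between 0.018 and 0.457, the difference stayed between −0.72 and −0.43, and 6 alternatives called it.

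The other AMPA subunit genes, Gria1, Gria3 and Gria4, lay below the background level, with differences of 0.10, −0.01 and −0.01. Glrb, the glycine receptor beta subunit gene beside Gria2, also lay below it, at 5.75, 5.64 and 5.75 in knockdown arrays and 5.71, 5.69 and 5.75 in control arrays.

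Among kainate receptor genes, Grik5 and Grik3 had signal above background. Grik5, which encodes a high-affinity subunit that needs a partner to form a channel, stood at 10.16, 10.53 and 10.18 in knockdown arrays, against 10.36, 10.37 and 10.10 in control arrays. The groups overlapped throughout, with a difference of 0.02 (95% interval −0.29 to 0.33, limma adjusted p = 0.99). Grik3 averaged 7.49 ± 0.28 in knockdown and 7.34 ± 0.11 in control cells (SD, n = 3 each; difference 0.15, limma adjusted p = 0.79), and its highest value was knockdown replicate 1 at 7.74. All 5 kainate genes had a higher mean in knockdown cells, by at most 0.15, beside 10962 of 19938 over all genes, and no kainate gene was called.

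Of 6 NMDA receptor genes measured, 3 lay above background: Grin2c, Grin2d and Grin3b. Grin2d encodes a subunit of slowly deactivating NMDA receptors and averaged 8.08 ± 0.14 in knockdown and 8.16 ± 0.070 in control cells (SD, n = 3 each; difference −0.07, limma adjusted p = 0.92). Grin2c and Grin3b each differed by 0.03. Grin3a, below background, had the smallest p of the group, at 7.10, 6.77 and 7.01 in knockdown arrays, against 6.79, 6.74 and 6.83 in control arrays, a difference of 0.17 (limma adjusted p = 0.67). The delta receptor gene Grid1 differed by 0.09 (limma adjusted p = 0.88) and lay just below the background level.

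Nicotinic genes held 10 of the 19 genes above background, 7 among 11 neuronal and 3 among 5 muscle subunit genes. Chrna5, Chrna3 and Chrnb4 lie next to each other on chromosome 9 in RefSeq gene order. Chrna3, whose product forms part of the agonist site of ganglionic receptors, stood at 12.45, 12.54 and 12.52 in knockdown arrays, against 12.54, 12.68 and 12.87 in control arrays. Each knockdown array was below the control array of its number, but the groups met at about 12.54. The difference was −0.19 (SE 0.10, 95% interval −0.42 to 0.04, limma adjusted p = 0.57, with the block 0.22). Chrnb4, the beta partner, averaged 7.84 ± 0.088 in knockdown and 7.92 ± 0.12 in control cells (SD, n = 3 each; difference −0.07, limma adjusted p = 0.86).

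Chrna5 had the widest spread of the 51 genes. Its values were 7.65, 8.11 and 6.49 in knockdown arrays 1 to 3, against 8.08, 8.54 and 6.83 in control arrays 1 to 3. In both groups the number 2 array was high and the number 3 array low, and both number 3 arrays fell under the background level. The range over the 6 arrays was 2.06, and 20 of 19938 genes (0.1%) had a wider one. In 18 of those 20 genes, a set looked at after the values were seen, the arrays had the same order in both groups, number 2 above 1 above 3, beside 8.02% of all genes.

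Chrna5 averaged 7.42 ± 0.84 in knockdown and 7.82 ± 0.89 in control cells (SD, n = 3 each). The difference of −0.40 had a 95% interval of −1.17 to 0.37 and a limma adjusted p of 0.72. Within numbers 1, 2 and 3 the differences were −0.42, −0.43 and −0.34, and with the replicate block the interval was −0.58 to −0.22 and the adjusted p 0.020. That call held without number 1 (adjusted p = 0.060) and was lost without number 2 (0.21) or number 3 (0.16). Without the block, leaving out knockdown replicate 3 turned the difference to 0.07, and the adjusted p over 17 alternatives ran between 0.020 and 1.00.

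**Figure D2:**
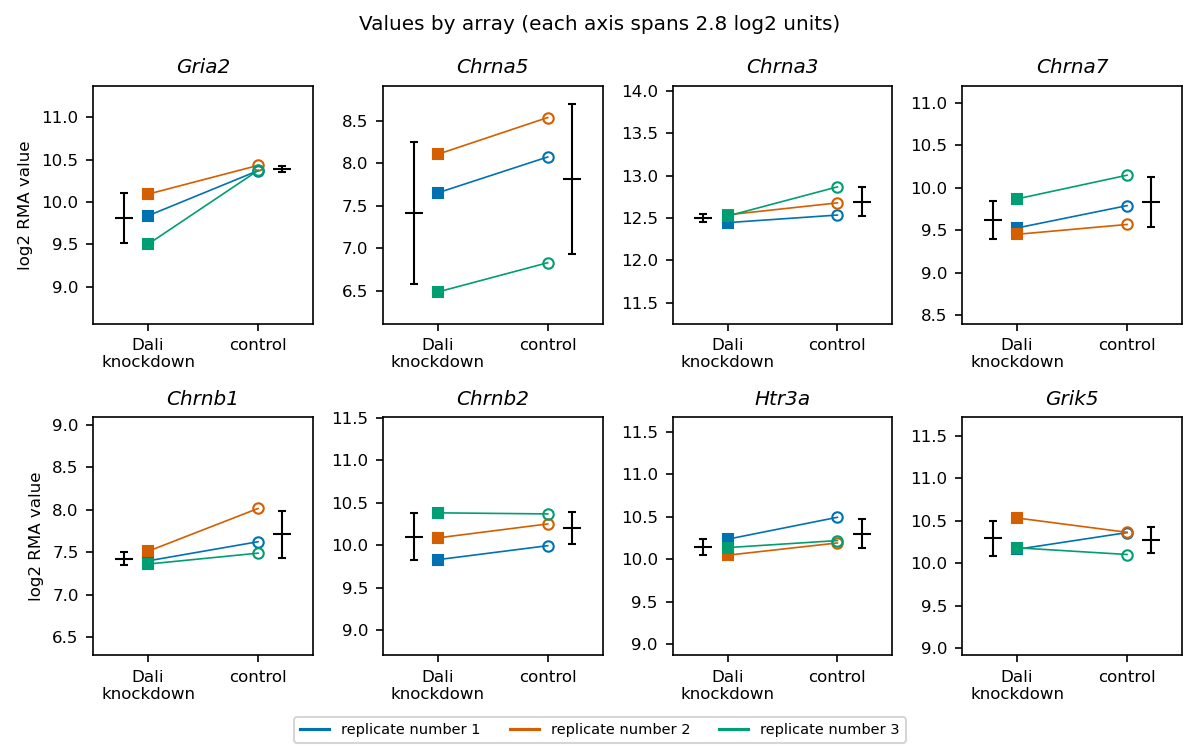
Log2 RMA values of 8 receptor subunit genes above background, with filled squares for Dali knockdown and open circles for control arrays, lines joining arrays of the same replicate number and bars giving the mean ± SD of 3 arrays. The Gria2 groups do not overlap, and each Chrna5 knockdown square lies 0.34 to 0.43 below the control circle of its number while arrays within a group differ by over 1 unit.

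The other neuronal nicotinic genes above background were Chrna7, Chrnb2, Chrna4 and Chrna9. Chrna7, the subunit of homomeric bungarotoxin-binding receptors, stood at 9.53, 9.45 and 9.87 in knockdown arrays, against 9.79, 9.57 and 10.15 in control arrays. It was lower in the knockdown array of each number, within overlapping groups, by −0.22 on average (limma adjusted p = 0.63, with the block 0.11). Chrnb2, the beta subunit of most high-affinity brain nicotinic receptors, averaged 10.10 ± 0.28 in knockdown and 10.20 ± 0.19 in control cells (SD, n = 3 each; difference −0.11, limma adjusted p = 0.88). Chrna4 and Chrna9 differed by −0.05 and −0.02. Of the 11 neuronal nicotinic genes, 9 had a lower mean after knockdown, beside 8976 of 19938 over all genes. Their median difference was −0.05.

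Among muscle-type nicotinic genes, Chrnb1, Chrne and Chrng lay above background. Chrnb1, the beta subunit of the receptor at the nerve-muscle junction, stood at 7.40, 7.51 and 7.36 in knockdown arrays, against 7.62, 8.01 and 7.49 in control arrays. The groups overlapped narrowly, with the difference of −0.29 (limma adjusted p = 0.46) carried most by number 2 and under the 1.3-fold limit of a call even with the block (adjusted p = 0.087). Chrne and Chrng, the adult and fetal subunits of the same receptor, differed by 0.09 and 0.06.

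The 12 GABA-A receptor genes of the set were near or below the background level. Gabrr2, a rho subunit best known from retina, was the only one above it, at 7.23 ± 0.15 in knockdown and 7.24 ± 0.21 in control cells (SD, n = 3 each). Gabrg1, which encodes a gamma subunit, had 5.64, 5.65 and 5.54 in knockdown arrays, against 5.46, 5.32 and 5.49 in control arrays. Every knockdown array lay above every control array, making it 1 of 51 genes with that separation, beside 8.47% of all genes. Its difference was 0.19 (limma adjusted p = 0.60) at values far below background. Glycine receptor genes were all below background and removed by the variance filter, and the one with the smallest p, Glra1, differed by 0.09 (limma adjusted p = 0.81).

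Both 5-HT3 receptor genes, neighbours on chromosome 9, had signal above background. Htr3a, the subunit that can form the channel alone, stood at 10.23, 10.05 and 10.14 in knockdown arrays, against 10.49, 10.19 and 10.22 in control arrays. It was lower in the knockdown array of each number by −0.16 on average (limma adjusted p = 0.69, with the block 0.25). Htr3b, which modifies the Htr3a channel, averaged 7.33 ± 0.11 in knockdown and 7.28 ± 0.16 in control cells (SD, n = 3 each; difference 0.05, limma adjusted p = 0.95).

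**Figure D3:**
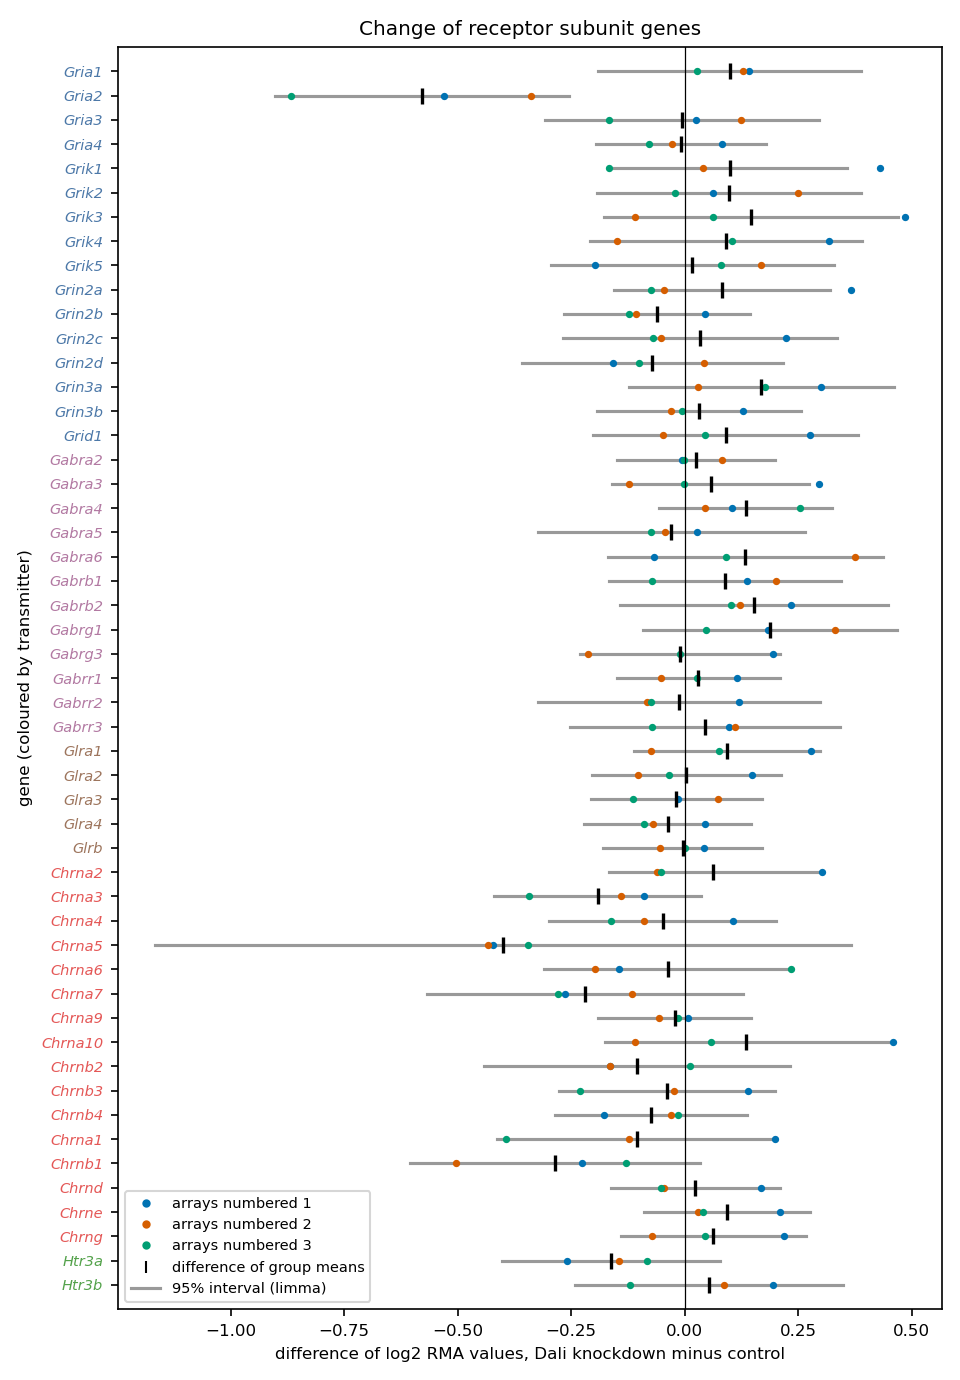
Difference of log2 RMA values, Dali knockdown minus control, for the 51 receptor subunit genes (vertical axis, coloured by transmitter), with a black tick for the difference of group means, a grey line for its 95% interval from limma and dots for the difference within each replicate number. The Gria2 interval ends at −0.26, and the Chrna5 interval is wide (−1.17 to 0.37) around closely grouped dots.

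Counted by sign within replicate numbers, 7 of 51 genes were lower in the knockdown array of all 3 numbers, beside 19.9% of all genes. They were Gria2, Htr3a and the nicotinic genes Chrna3, Chrna5, Chrna7, Chrnb4 and Chrnb1, and all 7 lay above background. Higher in all 3 numbers were 6 of 51, beside 21.5% of all genes, and 1 of these (Chrne) lay above background. The shares of all genes were not counted by level. Within number 1 the median difference was 0.14 over all genes not above background and 0.003 over all genes above it.

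By transmitter, median differences were small. They were 0.06 for glutamate (11 genes higher and 5 lower in mean), 0.05 for GABA (9 and 3), −0.005 for glycine (2 and 3), −0.04 for acetylcholine (5 and 11) and −0.05 for serotonin (1 and 1). Over all 51 genes the median was 0.02, beside 0.02 over all genes (10962 higher and 8976 lower). The 19 genes above background had a median of −0.05, with 7 higher and 12 lower, beside 0.004 for all genes above background (7064 higher and 6708 lower). The 32 genes not above it had a median of 0.05, beside 0.03 for all genes at such levels.

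The medians of glutamate, GABA and acetylcholine genes moved with the replicate number. For glutamate they were 0.13, −0.03 and −0.05 within numbers 1, 2 and 3, for GABA 0.12, 0.06 and −0.001, and for acetylcholine 0.06, −0.10 and −0.05. Genes not above background shifted in the same manner, by 0.14, −0.01 and −0.03, and olfactory and vomeronasal receptor genes by 0.12, 0.02 and −0.02. The part of this shift in the class medians was not tested. The median of the 19 subunit genes above background was −0.09, −0.08 and −0.07 within numbers 1, 2 and 3.

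**Figure D4:**
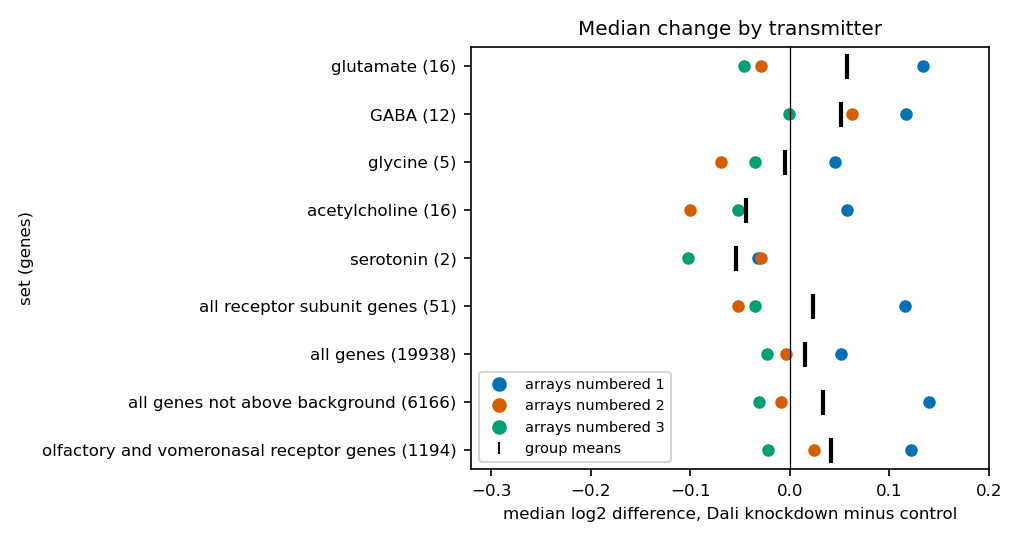
Median difference of log2 RMA values, Dali knockdown minus control, for the receptor subunit genes of each transmitter and for sets of other genes (number of genes in brackets), with a black tick for group means and dots for each replicate number. The dots of number 1 lie highest in all but the serotonin set, at 0.13 for glutamate and 0.14 for all genes not above background.

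Genes that act with these receptors were described in the same way. Of 24 postsynaptic scaffold and trafficking genes of excitatory synapses, 8 passed the variance filter, of which 1 rose and 0 fell, beside 1.14% of all probe sets that passed. This was Nsf, an ATPase that binds the GluA2 tail and sustains AMPA receptors at the membrane. It stood at 11.27, 11.09 and 11.31 in knockdown arrays, against 10.79, 10.64 and 10.59 in control arrays, without overlap. The difference was 0.55 (SE 0.14, limma adjusted p = 0.089). The call was lost without knockdown replicate 1 (adjusted p = 0.42) or 3 (0.17), without control replicate 1 (0.18) or 2 (0.25), without the variance filter (0.12) and when rows without a symbol entered the filter (0.40). With the block it was lost without number 2 (adjusted p = 0.16) or 3 (0.15), so that 9 of 17 alternatives kept it.

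Of 18 genes for auxiliary subunits and associated proteins of glutamate receptors, 8 passed the variance filter and 0 were called without the block. An unadjusted p under 0.05 was found in 2 of the 18, beside 11.1% of all genes. In the fit without the variance filter the smallest p values belonged to Cnih2, a cornichon that slows AMPA receptor closure, at −0.36 (limma adjusted p = 0.29, with the block 0.035 at under 1.3-fold), and to Cacng4, a transmembrane AMPA receptor regulatory protein, at −0.24 (adjusted p = 0.48). Shisa7, named afterwards because the block called it and with a smaller p than Cacng4 in the filtered fit, differed by −0.41 (limma adjusted p = 0.35, with the block 0.056), and it was also called without knockdown replicate 2 (adjusted p = 0.049). In each of the remaining lists 0 genes were called with or without the block, beside 7.65% of all probe sets with it, and at most 1 had an unadjusted p under 0.05 in limma without it. These lists were 10 genes of nicotinic receptor assembly (Tmem35a 0.15, Lynx1 −0.14), 13 of GABA-A and glycine receptor clustering (Gabarapl1 −0.33, Nlgn2 −0.25), 26 metabotropic receptors of the same transmitters (Gabbr1 −0.25, Chrm1 −0.13), 16 of transmitter synthesis and transport (Slc17a8 0.22, Slc17a6 0.16) and 4 further GABA-A subunits (Gabre −0.09, Gabrp 0.06). Of them 4, 7, 9, 9 and 1 genes passed the filter, in that order of lists. The values in brackets are log2 differences of the members with the smallest p in the unfiltered fit. One of the 4 further subunits, Gabrd, lay above background, at 7.95 ± 0.091 in knockdown and 7.93 ± 0.077 in control cells (SD, n = 3 each).

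Of 14 listed markers of neuroblastoma and sympathetic lineage, 12 were measured. All 12 lay above background (summary means of 11.31 to 11.41 in knockdown arrays and 11.40 to 11.49 in control arrays). So did 13772 of 19938 genes and all 6 skeletal muscle markers, so passing this level does not by itself establish identity. Astrocyte, oligodendrocyte, microglia and fibroblast markers were above it in 2 of 6, 2 of 5, 2 of 6 and 5 of 6 genes, and 0 of them were called. Array correlations were 0.990 to 0.997. Of probe sets that passed the filter, 43 rose and 90 fell, a split that became 57 and 71 after each array was centred on its median. No probe set was annotated to Dali, so depletion of the target was not analysed here. Pou3f3, the gene beside Dali, differed by 0.04 (limma adjusted p = 0.97), and E2f2, a cell cycle transcription factor, rose by 0.69 (adjusted p = 0.061). The E2f2 call was lost without knockdown replicate 1 (adjusted p = 0.39) or control replicate 2 (0.16), without the variance filter (0.13) and when rows without a symbol entered the filter (0.40), and with the block without number 2 (0.15) or 3 (0.12).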

How the data were processed

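RNA from N2A cells (3 Dali knockdown and 3 control samples) was measured on Affymetrix Mouse Gene 1.0 ST arrays. The authors processed the arrays by RMA (background correction, quantile normalisation and summary per probe set) and deposited log2 values, with array medians of 7.86 to 7.93. Neither tool versions nor a genome build are given in the sources used here. The table had 35556 rows, of which 21789 were annotated to 1 gene symbol, 1621 to several and 12146 to none in the annotation used, and rows with several symbols named no gene.

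Following the methods of the study, groups were compared with limma 3.58.1 in R 4.3.3 (lmFit and eBayes, two-sided) on the 11705 of 23410 annotated probe sets whose interquartile range was above the median, with Benjamini-Hochberg adjustment over all of them and a call at an adjusted p under 0.1 and at least 1.3-fold. Taking the variance cut-off as this median was a choice made here. The study reported more changed genes for this comparison than the 133 probe sets called here. For genes that the filter removed, values come from an unfiltered fit of the same kind. The code was tested on simulated data.

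The main fit was unpaired. In the block fit, replicate numbers from the labels were treated as pairs, because the deviations of same-numbered arrays correlated by 0.14, 0.65 and 0.65. Control replicate 1 correlated more (0.20) with knockdown replicate 2. The block leaves 2 residual degrees of freedom in place of 4. Its adjusted p is given where it changed the call of a named gene, and for some other genes.

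The members and gene lists were chosen with earlier results of these data known. Named were members called with or without the block, above background or with groups that do not overlap, the member of each receptor list with the smallest p, called genes of other lists or else the 2 with the smallest p, and Pou3f3 and E2f2. Alternatives changed the block, the filters, the centring, the variance model, the fold limit, the probe set choice and the arrays used. Members were matched by Entrez number to RefSeq (51 of 51, with 0 changed symbols). Intervals are 95% intervals of the fit, and the number of arrays limits the precision.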

Additional observations from a re-analysis of the deposited data

How the results depend on the processing

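Over all probe sets, 133 were called, and 896 with the replicate block, 41 without the variance filter, 370 with the variance in place of the interquartile range and 0 when rows without a symbol entered the filter. Leaving out 1 array gave between 4 (without knockdown replicate 1) and 508 (without knockdown replicate 2). Among receptor subunit genes, 0 were called, and 2 with the replicate block, 1 (Gria2) with the variance in place of the interquartile range and 1 (Gria2) with an intensity trend in eBayes. Leaving out 1 array, or 1 replicate number with the block, gave between 0 and 2. The settings that leave out a number with the block were chosen after seeing the data.

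The paired fit changed no call of another receptor subunit gene named here, beyond Gria2 (adjusted p = 0.018) and Chrna5 (0.020). The GABA median became −0.013 over the 1 gene above background, and the serotonin median lay between −0.12 and −0.0043 when 1 array was left out. The other medians ranged over 0.0081 to 0.13 for glutamate, 0.023 to 0.091 for GABA, −0.062 to −0.015 for acetylcholine, −0.024 to 0.033 for glycine and −0.010 to 0.059 for all 51 genes, the last 2 changing sign. Centring the arrays turned the glycine median to 0.025. It also turned Gabrr2 to 0.017 and Chrna9 to 0.0079. Leaving out arrays also turned the sign of differences that were small against their error. The ranges were −0.89 to 0.065 for Chrna5, −0.024 to 0.29 for Grik3, −0.10 to 0.12 for Grik5, −0.062 to 0.13 for Grin2c, −0.049 to 0.10 for Grin3b, −0.0024 to 0.17 for Grid1, −0.10 to 0.10 for Gabrr2, −0.13 to 0.046 for Chrna4, −0.037 to 0.00092 for Chrna9, −0.25 to 0.029 for Chrnb2, −0.015 to 0.13 for Chrng, −0.017 to 0.14 for Htr3b, −0.17 to 0.0020 for Gabre, −0.0054 to 0.14 for Gabrp and −0.12 to 0.19 for Pou3f3. The cause of these changes was not tested.

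With 3 arrays a group the interval of Chrna5 (−1.17 to 0.37) spans over 1 log2 unit, and a missed threshold does not show an unchanged level. For 32 of the 51 genes the signal lay at or below the background level, which limits what these arrays can show of them.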
